A study of Mus musculus with 12 samples.

Results

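Fat from outside the abdomen was compared with fat from inside it in 12 RNA-seq libraries of mouse adipose tissue, which are all 12 libraries of the study. The 6 outside libraries were 3 of interscapular brown adipose tissue (BAT, the heat-producing depot between the shoulder blades) and 3 of inguinal white adipose tissue (IWAT, under the skin of the groin). The 6 intra-abdominal libraries were 3 of epididymal white adipose tissue (EWAT, attached to the epididymis) and 3 of retroperitoneal white adipose tissue (RWAT, behind the lining of the abdomen). Libraries were placed on a side by their depot label alone. All came from male wild type C57BL/6J mice aged 6 to 10 weeks that ate a low-fat, standard rodent diet. Every depot on both sides had been denervated by surgery, and no innervated tissue was analysed here, so the values describe fat without its nerves. Whether each library stands for its own animal is not in the labels. A p-value here thus reflects no more than how far these samples spread, which could be technical.

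Fat depots arise from different embryonic sources, and adult depots keep position-dependent transcription factors, many of them T-box and homeobox proteins. Depots inside the abdomen are covered by mesothelium, a sheet of epithelial-like cells that lines the body cavities and carries keratins, uroplakins and the transcription factor WT1. Brown fat and, after stimulation, inguinal fat can burn fuel for heat through the mitochondrial protein UCP1, whereas the abdominal depots chiefly store lipid. In bulk tissue, fewer cells of a type and less RNA per cell cannot be told apart.

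Libraries held 15699763 to 25633270 estimated counts. A gene with a count of 0 could still be at 0.117 to 0.191 counts per 1000000 before TMM scaling, counting error only. Levels are given in CPM (counts per 1000000, scaled by TMM). Several libraries carried RNA of other tissues or stood apart from the rest of their depot. The 18 skeletal muscle genes summed to 23352, 16503 and 2757 CPM in the 3 BAT libraries and 19144 in RWAT replicate 3, against 44.4 to 111 in the other 8. Epididymis and testis genes (Crisp1, Adam7, Prm2 and others) summed to 1379, 186 and 22.1 CPM in EWAT replicates 1, 2 and 3 and to at most 2.01 elsewhere. Among the intra-abdominal libraries, RWAT replicate 1 was high in fatty acid synthesis genes, at 94247 CPM against 3864 to 9299.8 in the other 5. It was low in macrophage markers, at 2206 CPM against 5527 to 8392. IWAT replicate 3 had the lowest sum of fatty acid synthesis genes among the outside libraries, 11689.9 CPM, and the highest of macrophage markers, 6366 CPM. The fatty acid synthesis sums fell from replicate 1 to replicate 3 in every depot. They were 165852, 99272 and 31206 CPM in BAT and 110354, 58180 and 11689.9 in IWAT. In EWAT they were 9299.8, 8850 and 4345 CPM and in RWAT 94247, 4642 and 3864. The macrophage sums were lowest in replicate 1 of every depot. They rose to replicate 3 in BAT and IWAT, but in EWAT and RWAT replicate 2 was highest. The part of these contents in the differences below was not tested, except where a library was left out.

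**Figure D1:**
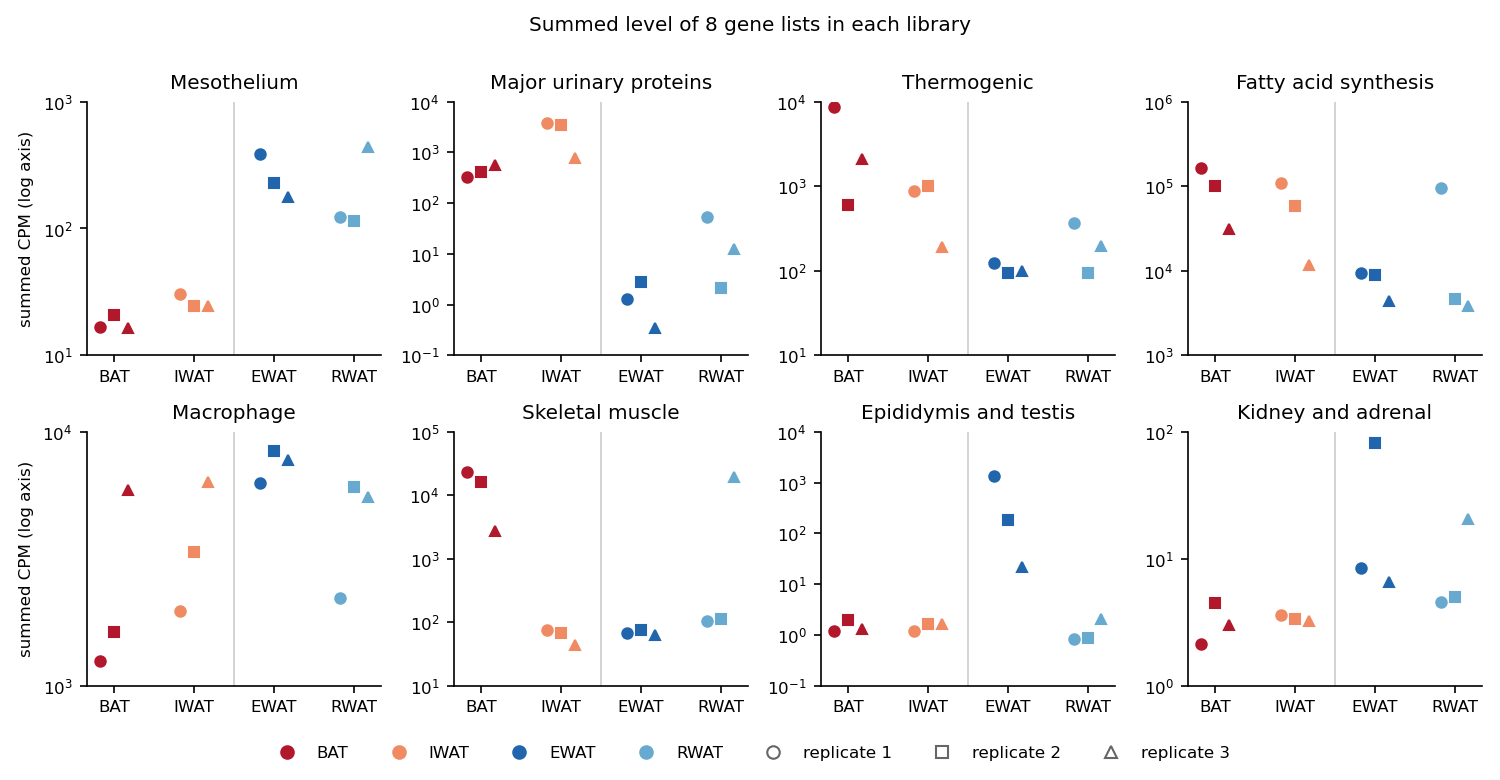
Summed level of 8 gene lists in each library (CPM, log axis), 3 libraries a depot, with the grey line between the outside and the intra-abdominal depots. Mesothelium and major urinary protein sums separate the sides, with at most 30.3 CPM outside against at least 114 inside for mesothelium, whereas skeletal muscle marks BAT and RWAT replicate 3 and epididymis genes mark EWAT.

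Of 19154 genes tested with edgeR's quasi-likelihood test, 163 passed a Benjamini-Hochberg adjusted p of 0.05, which is 0.851% of the genes. They were split evenly, 80 higher in BAT and IWAT (0.418% of genes tested) and 83 lower (0.433%). At an unadjusted p under 0.05 there were 5019 genes, where 958 would be expected by chance if genes were independent. The median log2 fold change over all genes was -0.07, and the median size of a change was 2.47 among the 80 and 3.55 among the 83 on the log2 scale. All 83 lower genes had higher mean levels in both EWAT and RWAT than in either outside depot. In 68 of them, every intra-abdominal library lay above every outside one. Of the 80 higher genes, 35 separated the 12 libraries completely, against 0.449% of all genes that did so in that direction and 0.835% in the other. DESeq2 called 2641 genes, 1684 higher and 957 lower, and limma-voom 75. Without TMM scaling the split was 68 higher and 165 lower, with an all-gene median of -0.43.

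The number of calls moved with single libraries. It was 2447 without RWAT replicate 1 and 1327 without IWAT replicate 3. It was 52, 64 and 81 without BAT replicates 1, 2 and 3, 50 and 40 without IWAT replicates 1 and 2, 66 and 85 without EWAT replicates 2 and 3, and 78 without RWAT replicate 2. Without EWAT replicate 1 or RWAT replicate 3 it was 238 or 120, and without both of these libraries, the highest in epididymis and the only intra-abdominal one high in skeletal muscle RNA, 112. That fit still held the muscle RNA of BAT and the epididymal RNA of EWAT replicates 2 and 3. Of the 163 genes, 34 passed in each of the 12 fits that left out 1 library, 19 higher and 15 lower, and the description below leads with these. Of the genes named below, 17 were picked after their values were seen: Krt19, Krt18, Krt7, Slc39a8, Adh7, AI606473, Zfhx4, Cox8b, Otop1, Gata5, Gata4, Lmx1b, Twist1, Ebf2, Myrf, Irf4 and Zeb1.

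**Figure D2:**
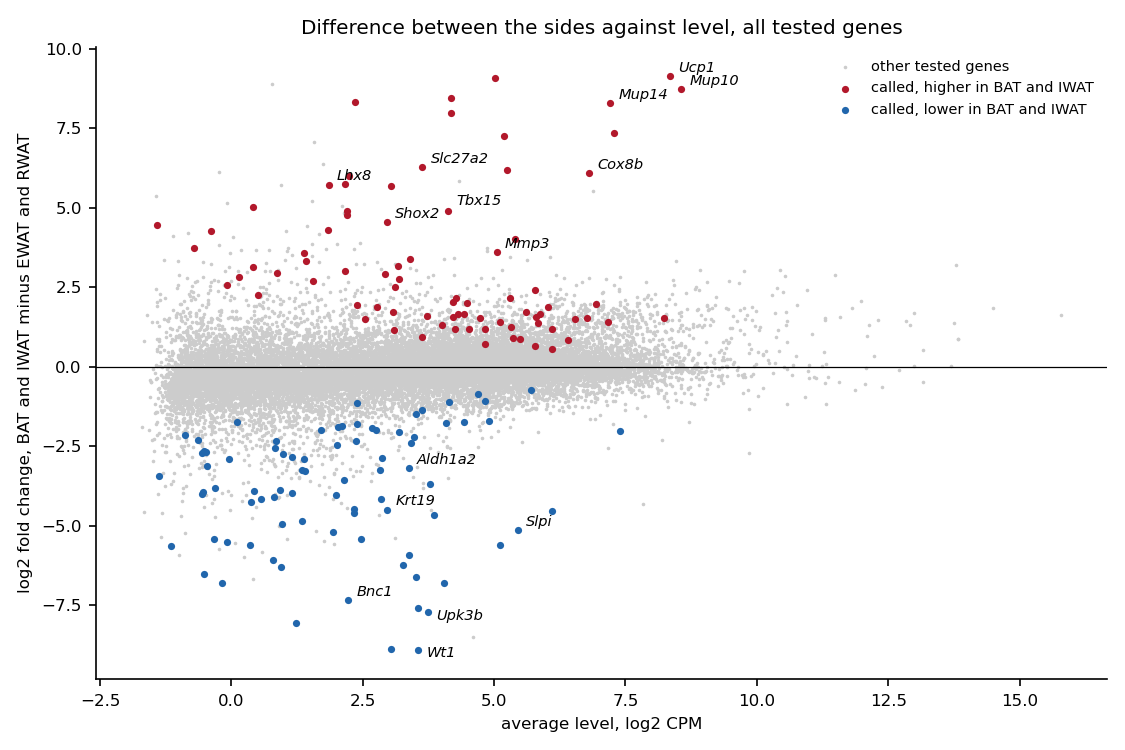
Log2 fold change between the sides (mean of BAT and IWAT minus mean of EWAT and RWAT) against average log2 CPM for the 19154 tested genes, with the 80 called higher genes in red and the 83 called lower genes in blue. The largest differences lie above 8 and below -8 on the log2 scale, and grey points as far out are genes whose libraries of a depot varied too much to pass.

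The clearest difference was the mesothelium. Of its 14 tested markers, 13 were lower in BAT and IWAT and none higher, against 0.433% of all genes called lower, with a median log2 fold change of -5.83 (-5.53 with depots near 0 set at their floor). In all 13, every intra-abdominal library lay above every outside library. Cldn15, a tight junction gene, was the member that did not pass, at -0.12 with levels near those of the other depots. Calb2 was too low to test. Markers near 0 outside, such as Wt1 and Upk1b, had enough counts to be tested through EWAT and RWAT alone and could not be called higher. The direction of the 13 calls is thus in part fixed by that filter.

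Wt1 (chr2:105126529-105173616, GRCm38), which encodes the transcription factor that marks mesothelium and its descendants, was at 0, 0.0654 and 0 CPM in BAT and 0, 0.0554 and 0.157 in IWAT. In EWAT it was at 30.1, 38.8 and 20.6 CPM and in RWAT at 4.05, 11 and 34.7. The outside libraries were at or under the level that a count of 0 allows, and the lowest intra-abdominal library, RWAT replicate 1, stood clear of them. The fitted log2 fold change was -8.92 ± 0.80 (SE; adjusted p = 0.00146), or -6.92 with the outside depots at their floor. All outside libraries together held 5 counts of Wt1 and the intra-abdominal libraries 2840, a ratio of 655 per sequenced count with a 95% interval of 280.2 to 2018 for counting error only.

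Upk1b and Upk3b encode uroplakins, membrane proteins of urothelium that mesothelium also makes. Upk3b (chr5:136038496-136046487) had a lowest, median and highest level of 0, 0.0522 and 0.589 CPM outside and of 10.1, 20.2 and 53.2 CPM inside. Its log2 change was -7.71 ± 0.85 (SE; adjusted p = 0.00374), or -6.92 with libraries near 0 at their floor. Upk1b was at most 0.111 CPM outside and 4.17, 13.4 and 31 CPM inside (lowest, median and highest). With 3 counts outside against 1916, its ratio per sequenced count was 736, with a 95% interval of 252 to 3573, and its fitted change -8.89 ± 0.90 (SE; adjusted p = 0.00277), or -6.38 with the outside depots at their floor. Neither gene overlapped between the sides.

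Bnc1 (chr7:81966672-81992292), a zinc finger protein of epithelial cells, ran from 2.84 CPM in RWAT replicate 2 to 16.6 in EWAT replicate 1 and was at most 0.104 outside, with a fitted change of -7.34 ± 0.66 (SE; adjusted p = 0.00146), or -5.64 with those depots at their floor. Msln, encoding the mesothelial surface protein mesothelin, had a median of 0.275 CPM outside and 11.8 inside, a change of -6.24 ± 0.78 (SE; adjusted p = 0.00734). Among the keratins, the filament proteins of epithelia, Krt8 was at 0, 0.0767 and 0.327 CPM outside and 2.14, 27.5 and 42.2 CPM inside (lowest, median and highest). Krt8 changed by -7.58 ± 0.92 (SE; adjusted p = 0.00605), or -6.49 with libraries near 0 at their floor. Krt19 followed, at 0.393, 0.602 and 1.11 CPM outside and 5.63, 13 and 29.9 CPM inside, with -4.49 ± 0.53 (SE; adjusted p = 0.00605). All these calls held when any 1 library was left out, with adjusted p-values of at most 0.0415 for Krt8 and 0.0466 for Msln. With limma-voom these 2 did not pass (adjusted p = 0.0554 and 0.0516). Muc16, a large mucin of mesothelial surfaces, changed by -6.79 ± 0.96 (SE; adjusted p = 0.0135) but did not pass without IWAT replicate 1 (adjusted p = 0.0633).

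Within the abdomen the mesothelial level varied from library to library. The list summed to 385, 229 and 176 CPM in EWAT and 124, 114 and 438 in RWAT, and to 16.5 to 30.3 outside. The highest value was in RWAT replicate 3, whose skeletal muscle sum is given above and whose epididymis genes were at 2.01 CPM. The epididymis sums were 0.834, 0.856 and 2.01 CPM in RWAT against at most 1.96 outside, and in these libraries each of the 13 markers was above every outside library. Epcam, an adhesion protein of many epithelia but not of normal mesothelium, averaged 6.81 CPM in EWAT and 0.121 in RWAT and did not pass (adjusted p = 0.0852). Krt14, of the same epithelial list, was at 1.07, 1.98 and 17.4 CPM in RWAT against at most 0.836 outside. That list summed to 79.6, 23.8 and 15 CPM in EWAT, 8.57, 5.54 and 26.4 in RWAT and 7.19 to 16.2 outside. The part of other epithelia in the mesothelial levels was not tested.

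Further called genes lay lower outside. Cdh3, encoding P-cadherin, was at 0.0489, 0.213 and 1.04 CPM outside and 1.73, 22 and 41.4 CPM inside (lowest, median and highest), with -5.91 ± 0.77 (SE; adjusted p = 0.00857). Lrp2, the endocytic receptor megalin, was at 0, 0.103 and 0.654 CPM outside and 6.37, 12.7 and 68.8 CPM inside, with -6.62 ± 0.96 (SE; adjusted p = 0.0143). Pkhd1l1, a large membrane protein gene, was at 0.0489, 1.54 and 2.59 CPM outside and 29.6, 42.3 and 131 CPM inside, with -5.61 ± 0.72 (SE; adjusted p = 0.00759). None overlapped between the sides. Cdh3 and Pkhd1l1 passed without any 1 library, and Lrp2 did not pass without BAT replicate 1, IWAT replicate 1 and IWAT replicate 2 (adjusted p = 0.0532 to 0.0589). Krt18 and Krt7 changed by -5.42 and -4.49, and were lost without BAT replicate 1, BAT replicate 2, BAT replicate 3, IWAT replicate 1 and IWAT replicate 2 for Krt18 (adjusted p = 0.0542 to 0.0966) and without BAT replicate 1, IWAT replicate 1 and IWAT replicate 2 for Krt7 (adjusted p = 0.0658 to 0.0742). Myrf, a membrane-bound transcription factor known from oligodendrocytes, was at 0.708, 1.05 and 0.832 CPM in BAT, 0.498, 1.5 and 1.83 in IWAT, 47.5, 29.3 and 29.1 in EWAT and 4.47, 11 and 45.3 in RWAT, with -4.66 ± 0.58 (SE; adjusted p = 0.00734) and no overlap.

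**Figure D3:**
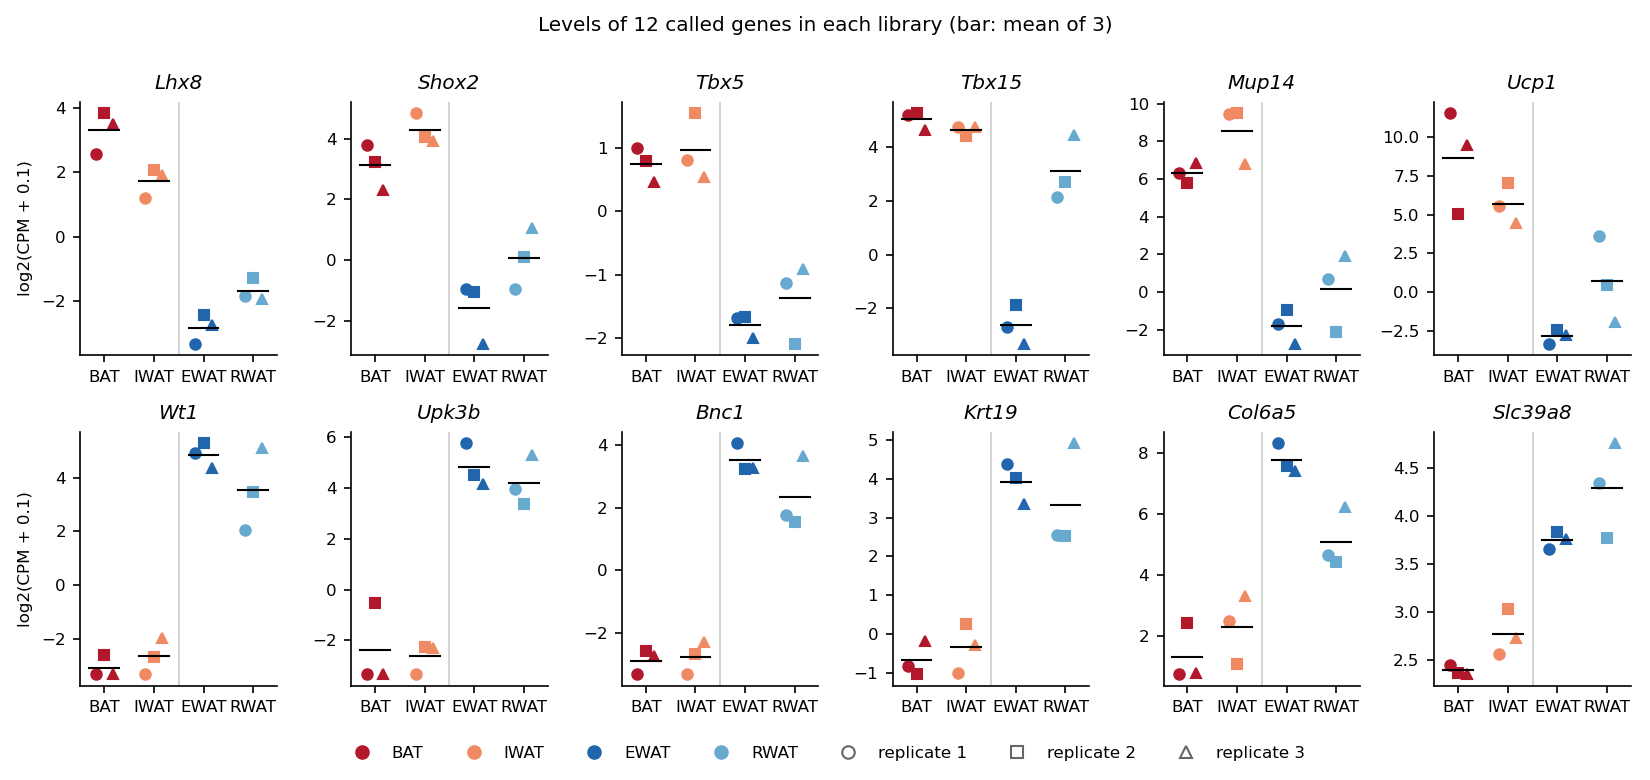
Level of 12 called genes in each library as log2(CPM + 0.1), with a bar at the mean of each depot's 3 libraries and a grey line between outside and intra-abdominal depots. For 11 of the 12 genes the sides do not overlap, and for Tbx15 RWAT replicate 3 lies above IWAT replicate 2.

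Of 16 developmental genes reported for visceral fat, 3 were lower outside and none higher, against 0.433% of all genes called lower. The list median was -0.97. The 3 were Gata5, and Wt1 and Bnc1, which the mesothelial list also holds. All 3 were near 0 outside, had enough counts to be tested through EWAT and RWAT alone and could not be called higher. The direction of these calls is thus in part fixed by that filter. Gata5, a zinc finger factor of heart and mesoderm, was at most 0.111 CPM outside and 0.655, 2.91 and 5.96 CPM inside, a change of -6.08 ± 0.82 (SE; adjusted p = 0.011), or -4.02 with the outside depots at their floor. It did not pass without IWAT replicate 2 (adjusted p = 0.0529), and an antisense gene overlaps it, so the reads of both cannot be told apart where counting ignored strand. Its relative Gata4 was at 1.27, 19.7 and 0.85 CPM in EWAT and 0.119, 0.36 and 0.707 in RWAT against at most 0.0996 outside (adjusted p = 0.0585). Tcf21, a bHLH factor of visceral stromal cells, was at 1.69, 4.8 and 1.05 CPM in EWAT, 0, 0.36 and 0.544 in RWAT and at most 0.104 outside (adjusted p = 0.0694). For both, every EWAT library lay above every RWAT library, and EWAT replicate 2 was the highest. That library also had the highest sum of kidney and adrenal genes, at 81.3 CPM against 2.13 to 20.7 in all others. The part of such RNA in these levels was not tested. RWAT replicate 1 held no Tcf21 count, and its Gata4 level was, like those outside, under what a count of 0 allows. With libraries near 0 at their floor the changes were -2.71 for Gata4 and -2.43 for Tcf21. Gata6 (adjusted p = 0.0844) and Nr2f1 (adjusted p = 0.145) did not pass, with median levels of 7.93 and 2.78 CPM outside and 24.9 and 5.18 inside.

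Matrix and signalling genes were part of the lower group. Of 32 collagen genes, 2 were lower outside (0.433% of all genes were) and none higher, with a list median of -0.34. Col6a5, a chain of beaded-filament collagen VI, was at 1.57, 5.3 and 1.61 CPM in BAT, 5.53, 1.99 and 9.87 in IWAT, 319, 189 and 168 in EWAT and 24.9, 21.1 and 74.7 in RWAT. EWAT was highest and RWAT intermediate, and the change was -4.55 ± 0.55 (SE; adjusted p = 0.00605). Col4a6, a basement membrane collagen chain, was at 0.327, 0.674 and 1.22 CPM outside and 3.38, 15.3 and 24.9 CPM inside (lowest, median and highest), a change of -4.17 ± 0.37 (SE; adjusted p = 0.00146) with no overlap. Both passed in all 12 fits that left out a library. Sums over the 32 collagens, which the abundant chains set, overlapped between the sides and ran from 9553 to 41084 CPM outside and 11620.2 to 54268 inside.

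Of 25 Wnt ligands and modulators, 2 were lower outside (0.433% of all genes) and none higher, with a list median of 0.05. Rspo1, a secreted enhancer of Wnt signalling, was at 0.0978, 0.498 and 0.775 CPM outside and 1.04, 4.53 and 6.33 CPM inside (lowest, median and highest), with -3.26 ± 0.51 (SE; adjusted p = 0.0186). Wnt4, a ligand of gonad and kidney development, was at 2.68, 3.04 and 4.88 CPM outside and 5.72, 16 and 22.4 CPM inside, with -2.05 ± 0.32 (SE; adjusted p = 0.0186). Neither overlapped between the sides. Rspo1 did not pass without BAT replicate 2, IWAT replicate 1 and IWAT replicate 2 (adjusted p = 0.0725 to 0.077), nor Wnt4 without BAT replicate 2, BAT replicate 3, IWAT replicate 1, IWAT replicate 2 and EWAT replicate 2 (adjusted p = 0.0548 to 0.0861).

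Of 21 retinoid handling genes, again 2 were lower outside, against 0.433% of all genes, and none higher (list median -0.18). Adh7, a retinol-oxidising enzyme described below, is not on that list and was called higher outside (3.57, adjusted p = 0.00369). Aldh1a2, which makes retinoic acid from retinaldehyde, was at 21.1, 33.3 and 19 CPM in EWAT, 3.1, 6.49 and 27.8 in RWAT, 0.945, 0.785 and 1.96 in BAT and 1.3, 2.05 and 5.48 in IWAT. RWAT replicate 1 lay below IWAT replicate 3, and the change was -3.18 ± 0.59 (SE; adjusted p = 0.038). Rarres1, a retinoic acid-responsive gene, changed by -2.32 ± 0.41 (SE; adjusted p = 0.0325). Both calls were lost without any library other than IWAT replicate 3, EWAT replicate 1, RWAT replicate 1 and RWAT replicate 3 for Aldh1a2 (adjusted p = 0.0597 to 0.157) and without any library other than IWAT replicate 3, EWAT replicate 1 and RWAT replicate 1 for Rarres1 (adjusted p = 0.0534 to 0.134). Meis1, a homeobox partner of HOX proteins, was the lower member of the homeobox list, at 8.32, 11.3 and 12.8 CPM outside and 16.5, 21.8 and 31.1 CPM inside, with -1.10 ± 0.19 (SE; adjusted p = 0.0313). It was called in the fits without IWAT replicate 3, EWAT replicate 1, EWAT replicate 2 and RWAT replicate 1 and in no other fit that left out a library, where its adjusted p was 0.0603 to 0.125. Slc39a8, a zinc and manganese importer, was lower outside by a small but even margin, at 4.99, 5.57 and 8.03 CPM outside and 12.5, 13.8 and 27 CPM inside, with -1.48 ± 0.18 (SE; adjusted p = 0.00605) and a call in each of these fits.

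Developmental transcription factors were among the genes higher outside. Of 12 genes reported for subcutaneous fat, 4 were higher outside and none lower (Tbx15, Shox2, Lmx1b and Twist1), against 0.418% of all genes, with a list median of 0.62. Of 10 brown lineage genes, 3 were higher, Lhx8 and Ebf2 among them, and none lower, against the same 0.418%, with a median of 1.42. These lists were drawn from work on such depots. Lmx1b and Lhx8, near 0 inside, passed the count filter through BAT and IWAT alone and could not be called lower. The direction of the calls is thus in part fixed by that filter.

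Lhx8 (chr3:154306294-154330659), a LIM homeobox factor known from forebrain and tooth development and as a marker of brown preadipocytes, was at 5.9, 14.3 and 11.3 CPM in BAT and 2.19, 4.15 and 3.71 in IWAT. Inside the abdomen it was at 0, 0.0856 and 0.05 CPM in EWAT and 0.179, 0.315 and 0.163 in RWAT. BAT libraries were the highest and the IWAT libraries also stood clear of all intra-abdominal ones. The change of Lhx8 was 5.74 ± 0.45 (SE; adjusted p = 0.00111), or 4.86 with libraries near 0 set at the floor of 3 counts a library. Its neighbour AI606473, an uncharacterised gene, starts on the opposite strand and moved with it, at 1.2, 1.88 and 4.64 CPM outside and at most 0.135 CPM inside, with 5.04 ± 0.52 (SE; adjusted p = 0.00277), or 3.60 with EWAT and RWAT at their floor. The stretches of 250 bases before the starts of both genes (RefSeq, GRCm38.p6) share 240 bases. By the position of Lhx8 given above, part of its stretch lies within the gene. Whether the stretch has a part in either call was not tested. The Lhx8 stretch lies at chr3:154330561-154330810 on the minus strand and is shown 5′ to 3′ with the shared bases in capitals.
Lhx8: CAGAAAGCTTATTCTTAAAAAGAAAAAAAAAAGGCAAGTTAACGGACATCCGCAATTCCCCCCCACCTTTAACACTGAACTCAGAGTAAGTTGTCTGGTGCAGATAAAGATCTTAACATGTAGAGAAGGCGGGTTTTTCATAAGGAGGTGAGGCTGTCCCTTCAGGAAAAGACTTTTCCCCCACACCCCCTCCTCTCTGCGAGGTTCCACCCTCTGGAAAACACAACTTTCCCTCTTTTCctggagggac

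Tbx15 (chr3:99240381-99354259), a T-box factor of skeleton and of subcutaneous fat, was at 36.8, 38.3 and 24.7 CPM in BAT and 27, 21.1 and 26.9 in IWAT, but at 0.0528, 0.171 and 0 in EWAT and 4.35, 6.4 and 21.9 in RWAT. EWAT was at or near 0 and RWAT intermediate, with RWAT replicate 3 above IWAT replicate 2. The change between the sides was 4.90 ± 0.52 (SE; adjusted p = 0.00332), and that of EWAT minus RWAT alone was -6.99 (adjusted p = 0.02). Shox2 (chr3:66971727-66981771), a homeobox factor of limb and heart, was at 4.84, 14.5 and 28.4 CPM outside and 0.05, 0.419 and 2.01 CPM inside (lowest, median and highest), without overlap, and changed by 4.56 ± 0.52 (SE; adjusted p = 0.00489). Tbx5 (chr5:119832668-119885219), a T-box factor of forelimb and heart, was low throughout, at 1.27, 1.64 and 2.82 CPM outside and 0.135, 0.213 and 0.435 CPM inside, again without overlap, and changed by 2.83 ± 0.34 (SE; adjusted p = 0.00605). The 4 genes Lhx8, Tbx15, Shox2 and Tbx5 passed in every fit that left out 1 library, with adjusted p-values of at most 0.00715, 0.0175, 0.0239 and 0.037. In a fit of 2 groups of 6 without depot coefficients, Tbx15 did not pass (adjusted p = 0.178). Shox2 shares its position with the gene Rsrc1, so reads of both may be mixed where counting ignored strand.

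For Zfhx4, a zinc finger homeobox factor, EWAT alone was low and RWAT lay near the outside depots. It was at 12.7, 9.85 and 8.7 CPM in EWAT and 64.7, 58 and 65.1 in RWAT, with a median of 80 outside. Its changes were 1.65 ± 0.15 (SE; adjusted p = 0.00151) between the sides and -2.59 between EWAT and RWAT (adjusted p = 0.00347). With 2 groups of 6 without depot coefficients it did not pass (adjusted p = 0.179).

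Other homeobox genes split, with 4 of 25 tested higher outside and 1 lower, against 0.851% of all genes called in either direction. Gsc, the organiser factor goosecoid, was at 0.888, 1.87 and 4.71 CPM outside and 0.05, 0.241 and 0.476 CPM inside, and Irx2, an Iroquois factor, at 1.83, 3.01 and 4.25 CPM and 0.1, 0.358 and 0.686 CPM (lowest, median and highest). Neither overlapped, and the changes were 3.14 ± 0.50 (SE; adjusted p = 0.0186) and 2.96 ± 0.42 (SE; adjusted p = 0.0135). Gsc did not pass without BAT replicate 2, IWAT replicate 1, IWAT replicate 2, EWAT replicate 2, RWAT replicate 2 and RWAT replicate 3 (adjusted p = 0.0509 to 0.0797), nor Irx2 without IWAT replicate 2 (adjusted p = 0.0569). The other members called higher were Zfhx4 and Zeb1, a repressor of epithelial genes, at 0.57 on the log2 scale with EWAT at 38.3, 46 and 42.8 CPM and RWAT at 71.2, 62.3 and 74.8.

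Ebf2, a factor that directs brown fat differentiation, was at 33.7, 57.4 and 66.3 CPM outside and 12, 23.9 and 45.1 CPM inside (lowest, median and highest), a change of 1.25 ± 0.20 (SE; adjusted p = 0.0187) in which RWAT replicates 1 and 3 overlapped the outside range. Twist1, a bHLH factor of mesenchyme, had medians of 16 CPM outside and 7.89 inside and a change of 0.92 ± 0.18 (SE; adjusted p = 0.0467). Lmx1b, a LIM homeobox factor of dorsal limb, was at most 0.831 CPM in any library and changed by 4.47 ± 0.73 (SE; adjusted p = 0.0364), or 1.43 with EWAT and RWAT set at their floor. These calls were fragile. Ebf2 was lost without any library other than BAT replicate 3, IWAT replicate 3, EWAT replicate 1 and RWAT replicate 1 (adjusted p = 0.0505 to 0.0742), Twist1 without any library other than IWAT replicate 3 and RWAT replicate 1 (adjusted p = 0.0603 to 0.166), and Lmx1b without any library other than IWAT replicate 3, EWAT replicate 1 and RWAT replicate 1 (adjusted p = 0.0576 to 0.157).

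The Hox genes, which set position along the body axis, gave no call with edgeR or limma-voom among 26 tested. At an unadjusted p under 0.05 there were 6, and DESeq2 called 3. The direction was mixed, and their median log2 fold change was -0.11, close to the -0.07 of all genes. Hoxc10 was at 0.0787, 0 and 0 CPM in BAT, 10.6, 9.64 and 5.95 in IWAT, 0.739, 0.214 and 0.65 in EWAT and 7.8, 5.18 and 1.47 in RWAT. IWAT and RWAT were thus the high depots, 1 on each side, and the change between the sides was -1.70 ± 0.65 (SE; adjusted p = 0.142), or -0.25 with BAT at its floor, which turned to 0.72 in a fit of 2 groups of 6 without depot coefficients. Hoxa5 was highest in BAT, at 11.7, 6.08 and 5.53 CPM, and lowest in IWAT, at 1.3, 1.27 and 1.31, with EWAT at 4.54, 2.74 and 2.7 and RWAT at 4.11, 3.11 and 7.12. Its change between the sides was -0.33 ± 0.28 (SE; adjusted p = 0.437), which turned to 0.15 in that fit. Averaging BAT with IWAT sets opposite depot levels of both genes against each other.

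Mmp3 (chr9:7445822-7455975), the secreted protease stromelysin 1, was the called member among 18 matrix metalloproteinases and inhibitors (list median -0.01), against 0.418% of all genes. It was at 44.7, 55.5 and 54.1 CPM in BAT, 52.5, 50.7 and 76.5 in IWAT, 21.4, 8.2 and 28.4 in RWAT and 0.95, 1.11 and 1.15 in EWAT. The sides did not overlap, RWAT was intermediate, and the change was 3.60 ± 0.29 (SE; adjusted p = 0.00111). EWAT minus RWAT was -4.16 (adjusted p = 0.00607), and the call between the sides held without any 1 library, with an adjusted p of at most 0.00715. It did not pass with 2 groups of 6 without depot coefficients (adjusted p = 0.0977).

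Large fold changes on the higher side were those of genes for major urinary proteins, small secreted lipid-binding proteins made by liver and glands that carry pheromones and are also found in fat. Of 21 Mup genes on the list, 11 had enough counts to test, and 8 of these were higher outside and none lower, against 0.418% of all genes called higher. All 8 were without overlap, against 0.449% of all genes. The 10 Mup genes left out were too low to test, so the count speaks of the 11 alone. Genes near 0 inside, such as Mup16, Mup11 and Mup2, passed this filter through BAT and IWAT alone and could not be called lower. The direction of the 8 calls and the shares are thus in part fixed by the filter. The list summed to 326, 409 and 561 CPM in BAT and 3828, 3428 and 760.2 in IWAT. In EWAT the sums were 1.27, 2.78 and 0.35 CPM and in RWAT 52.1, 2.16 and 12.7. IWAT was the highest depot, and the highest intra-abdominal library was RWAT replicate 1, which was also high in fatty acid synthesis genes.

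Mup genes lie in a cluster of near-identical copies on chromosome 4, and how reads were divided among them is uncertain. Of the 8 called genes, 6 matched a promoter entry of RefSeq (GRCm38.p6). Over the bases that aligned, the stretches of 250 bases before the start were 92.9% to 99.6% identical in the 15 pairs of these 6. Mup10 (chr4:60582156-60582405) and Mup2 (chr4:60139857-60140106), both on the minus strand, are shown 5′ to 3′ to make this visible, with the motif TATANA (N is any base) in capitals.
Mup10: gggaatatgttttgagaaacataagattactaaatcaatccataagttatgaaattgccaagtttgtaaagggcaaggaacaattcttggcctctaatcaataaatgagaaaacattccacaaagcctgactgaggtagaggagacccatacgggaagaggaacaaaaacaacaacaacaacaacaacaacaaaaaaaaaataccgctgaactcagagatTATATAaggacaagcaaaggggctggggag
Mup2: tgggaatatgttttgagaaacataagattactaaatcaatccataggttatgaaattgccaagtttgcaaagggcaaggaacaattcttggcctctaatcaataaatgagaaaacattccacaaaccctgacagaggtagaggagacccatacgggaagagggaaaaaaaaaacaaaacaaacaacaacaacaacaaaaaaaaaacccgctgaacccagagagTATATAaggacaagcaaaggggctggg
In these sequences the motif began 30 and 27 bases before the RefSeq start. Within 20 to 35 bases before the start and on the coding strand, it was found in 3 of the 6 Mup promoters, in 5 of 58 promoters of called higher genes, in 1 of 55 of called lower genes and in 3.39% of all 27025 promoters. Anywhere in the 250 bases on either strand, 25.7% of all promoters held it, and 22.4% and 14.5% of those of the called higher and lower genes. The 5 promoters of called higher genes include those of the 3 Mup genes and of Ucp1. As the Mup promoters are near-identical copies, the 5 are not separate observations. The Mup11 stretch breaks off at the bases that lead into the motif in Mup2. The count among the Mup promoters thus depends on where RefSeq places each start.

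Mup10 (chr4:60578260-60582199) was the most abundant by CPM, at 123, 204 and 279 in BAT, 1875, 1552 and 441 in IWAT, 0, 0.257 and 0 in EWAT and 35.7, 1.35 and 6.25 in RWAT. Its change was 8.73 ± 1.03 (SE; adjusted p = 0.00605). Mup14 (chr4:61300023-61304000) was at 56.1, 112 and 721 CPM outside and 0.05, 0.32 and 3.64 CPM inside (lowest, median and highest) and changed by 8.29 ± 0.86 (SE; adjusted p = 0.00277). The change of Mup1 was 7.99 ± 0.74 (SE; adjusted p = 0.00151). For Mup9 it was 7.36 ± 1.02 (SE; adjusted p = 0.0122), and these 4 held in every fit that left out a library. Mup10 did not pass with 2 groups of 6 without depot coefficients (adjusted p = 0.0808), Mup1 with limma-voom (adjusted p = 0.0564), nor Mup9 without both EWAT replicate 1 and RWAT replicate 3 (adjusted p = 0.0525). Mup16, Mup11, Mup2 and Mup7 were called with changes of 9.08, 8.44, 8.32 and 6.00, or 6.81, 6.42, 5.05 and 4.75 with depots near 0 at their floor. These 4 were lost without IWAT replicate 2 for Mup16 (adjusted p = 0.0569) and Mup2 (adjusted p = 0.0569), without IWAT replicate 1 and IWAT replicate 2 for Mup11 (adjusted p = 0.0502 to 0.059), and without any library other than IWAT replicate 3, EWAT replicate 1, EWAT replicate 2 and RWAT replicate 1 for Mup7 (adjusted p = 0.0575 to 0.125). The authors' deposited posterior standard deviation, which measures how uncertainly RSEM assigned reads, was 1.07%, 2.09% and 2.08% of the count for Mup10, Mup14 and Mup9 but 9.22%, 9.23% and 9.86% for Mup1, Mup11 and Mup7. In TPM, which scales for length, Mup9 averaged 2002 in IWAT and Mup10 1635, so the order by CPM is not the order per length.

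Adh7, an alcohol dehydrogenase that also oxidises retinol, was at 2.4, 4.37 and 6.78 CPM outside and 0.0528, 0.478 and 0.87 CPM inside (lowest, median and highest), with 3.57 ± 0.39 (SE; adjusted p = 0.00369). Irf4, an interferon regulatory factor active in lymphocytes and in adipocyte lipid handling, was at 17.6, 32.1 and 44.6 CPM outside and 3.92, 6.75 and 12.4 CPM inside, with 2.18 ± 0.31 (SE; adjusted p = 0.0135). Neither overlapped between the sides, and both passed without any 1 library, with adjusted p-values of at most 0.023 and 0.0493. Without both EWAT replicate 1 and RWAT replicate 3, Irf4 did not pass (adjusted p = 0.0525).

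Among thermogenic genes, 8 of 19 tested were higher outside with edgeR, against 0.418% of all genes, with the highest levels in BAT replicate 1. All 19 had an unadjusted p under 0.05, 18 passed with DESeq2, 16 without RWAT replicate 1 or without IWAT replicate 3, and none with limma-voom. The 8 were Ucp1, Slc27a2, Otop1, Cox8b, Cpn2, Elovl3, Cox7a1 and Ppargc1a. Of the 19, 4 had a depot with at most 3 counts in each library. Slc27a2, at most 0.257 CPM inside, passed the count filter through BAT and IWAT alone and could not be called lower. The direction of the calls is thus in part fixed by that filter. All 19 had a positive log2 fold change, and the list median was 3.46. Ucp1 (chr8:83290352-83298452), the proton carrier of brown fat, was at 2962, 32.2 and 702 CPM in BAT and 47.6, 129.8 and 21.5 in IWAT. In EWAT it was at 0, 0.0856 and 0.05 CPM and in RWAT at 12.4, 1.31 and 0.163. BAT replicate 2 was below IWAT replicates 1 and 2, RWAT replicate 1 was the highest inside, and the sides did not overlap. The change was 9.16 ± 1.49 (SE; adjusted p = 0.0218), or 8.17 with libraries near 0 at their floor. It was lost without BAT replicate 1, IWAT replicate 1, IWAT replicate 2, EWAT replicate 1, EWAT replicate 2, EWAT replicate 3 and RWAT replicate 2 (adjusted p = 0.0503 to 0.0894). The 250 bases before its RefSeq start (chr8:83290098-83290347, plus strand) hold the same motif 28 bases before it, in capitals, where a further match overlaps the first.
Ucp1: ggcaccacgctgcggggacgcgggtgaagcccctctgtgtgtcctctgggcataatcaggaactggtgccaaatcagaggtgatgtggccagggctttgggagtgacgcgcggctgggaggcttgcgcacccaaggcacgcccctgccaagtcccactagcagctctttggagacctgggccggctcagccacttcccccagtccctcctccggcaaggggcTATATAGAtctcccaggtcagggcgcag

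Slc27a2, a very long chain fatty acid transporter, was at 0.783, 6.21 and 100.2 CPM outside and 0.0528, 0.157 and 0.257 CPM inside (lowest, median and highest), highest in BAT replicate 1, with 6.28 ± 0.95 (SE; adjusted p = 0.0172). It did not pass without EWAT replicate 2, EWAT replicate 3 and RWAT replicate 2 (adjusted p = 0.0557 to 0.0618). Cox8b, a muscle and brown fat subunit of cytochrome c oxidase, was at 803, 88.9 and 142 CPM in BAT, 102, 133 and 13.6 in IWAT, 0.528, 0.128 and 0.4 in EWAT and 39.7, 0.405 and 12.6 in RWAT. RWAT replicate 1 exceeded IWAT replicate 3. Its change was 6.09 ± 1.12 (SE; adjusted p = 0.0381), lost without any library other than IWAT replicate 3, RWAT replicate 1 and RWAT replicate 2 (adjusted p = 0.0575 to 0.122). Cox8b is also a muscle gene, and BAT and RWAT replicate 3 held the skeletal muscle RNA given above, whose part in this difference was not tested. Otop1, a proton channel of brown fat, had medians of 43.3 CPM outside and 0.347 inside and a change of 6.19 ± 1.21 (SE; adjusted p = 0.0467), lost without any library other than IWAT replicate 3 and RWAT replicate 1 (adjusted p = 0.0604 to 0.141). Cidea, a lipid droplet protein of brown fat, was at 11.1, 111 and 853 CPM outside and 0, 0.492 and 30.4 CPM inside and did not pass (adjusted p = 0.0826).

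**Figure D4:**
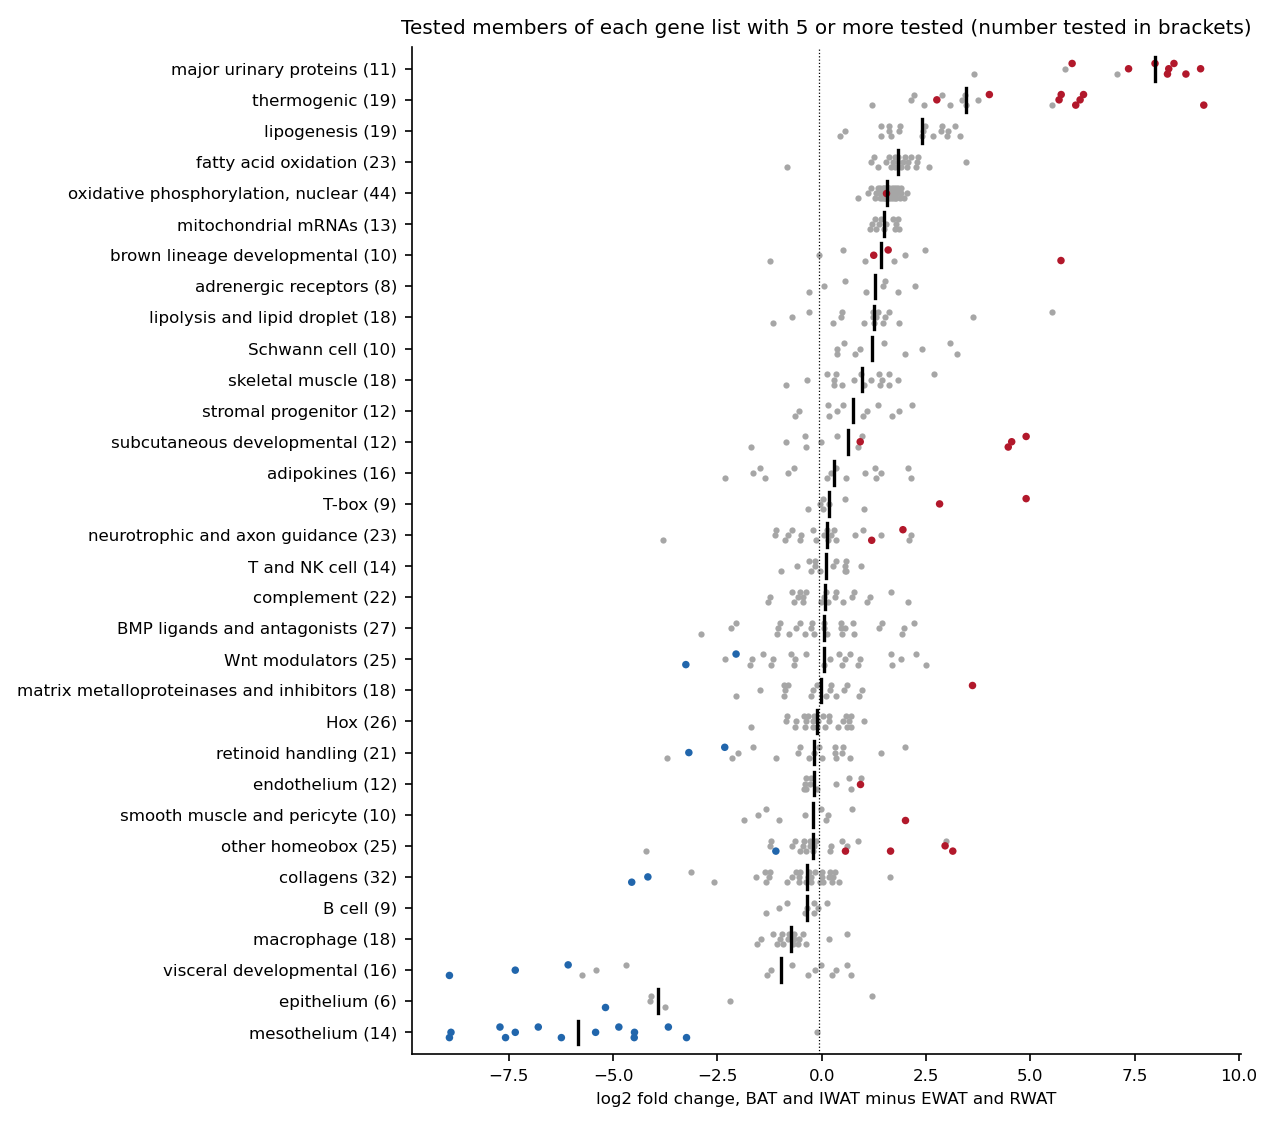
Log2 fold change between the sides of each tested member of the gene lists with at least 5 tested members; red and blue points passed the test, grey did not, the black bar is the list's median and the dotted line the median of all genes (-0.07). Mesothelium lies far below 0 and major urinary proteins and thermogenic genes far above, while the fatty acid synthesis and oxidative phosphorylation lists are shifted upward with at most 1 member called by edgeR on all libraries.

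Lipid and mitochondrial genes shared a direction, higher outside, but whether they passed depended on the test and on RWAT replicate 1 and IWAT replicate 3. All 19 tested fatty acid synthesis genes had positive changes with a median of 2.41. With edgeR and with limma-voom none passed, but 15 had an unadjusted p under 0.05, DESeq2 called 14, and edgeR called 18 without RWAT replicate 1 and 3 without IWAT replicate 3. Their sum was at a lowest, median and highest of 11689.9, 78726 and 165852 CPM outside and of 3864, 6746 and 94247 inside, and the sides overlapped through RWAT replicate 1. Scd1, the desaturase that makes oleate, was at 6734, 35447 and 63838 CPM outside and 1921, 4348 and 52864 CPM inside, with 1.85 ± 0.88 (SE; adjusted p = 0.211). Of 23 fatty acid oxidation genes 22 had positive changes (median 1.82). None passed with edgeR or limma-voom, but all 23 had an unadjusted p under 0.05, DESeq2 called 21, and edgeR called 21 without RWAT replicate 1 and 18 without IWAT replicate 3. All 44 nuclear genes of oxidative phosphorylation had positive changes (median 1.57) and an unadjusted p under 0.05. All 44 passed with DESeq2, and with edgeR without RWAT replicate 1 or without IWAT replicate 3, but none with limma-voom. With edgeR on all libraries Ndufa1, a subunit of complex I, passed, at 31.6, 74.1 and 177 CPM outside and 23.4, 25.4 and 40.4 CPM inside with 1.55 ± 0.30 (SE; adjusted p = 0.0474), and did not pass without any library other than IWAT replicate 3 and RWAT replicate 1 (adjusted p = 0.0575 to 0.164). The 13 mRNAs of the mitochondrial genome had a median of 1.49 and an unadjusted p under 0.05 in all 13. None passed with edgeR or limma-voom, DESeq2 called 9, and edgeR called 12 without RWAT replicate 1 and 5 without IWAT replicate 3. The log2 fold change of mt-Co1, a core subunit of cytochrome c oxidase, was 1.38 ± 0.47 (SE; adjusted p = 0.118). The genes of a list were measured in the same 12 libraries, so their shared sign is not independent evidence gene by gene.

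Adipocyte hormone and lipid droplet genes did not pass edgeR's test on all libraries. Adipoq, encoding the adipocyte hormone adiponectin, was at 531, 1685 and 1947 CPM outside and 257, 405 and 1569 CPM inside, with 1.28 ± 0.53 (SE; adjusted p = 0.162). Lep, encoding leptin, was at 52.2, 256 and 713 CPM outside and 19.8, 108 and 705 CPM inside, with 0.57 ± 0.84 (SE; adjusted p = 0.656). Of 16 adipokine genes none passed with edgeR or limma-voom, 6 had an unadjusted p under 0.05, DESeq2 called 4, and edgeR called 7 without RWAT replicate 1 and 2 without IWAT replicate 3. For 18 genes of lipolysis and the lipid droplet the counts were 0 with edgeR and limma-voom, 10 unadjusted, 6 with DESeq2, and 12 and 2 with edgeR without these libraries. Adrb3, the adrenergic receptor through which nerves stimulate fat, had medians of 178 and 35.4 CPM and did not pass (adjusted p = 0.221). Of 8 adrenergic receptors tested none passed with edgeR or limma-voom, 4 had an unadjusted p under 0.05, DESeq2 called 4, and edgeR called 5 without RWAT replicate 1 and 3 without IWAT replicate 3. The highest intra-abdominal level of Adipoq, Lep and Adrb3 was that of RWAT replicate 1 in each case.

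Genes for nerve contact and guidance included 2 of 23 called higher outside, against 0.418% of all genes, with a list median of 0.12. Sema3e, a repulsive guidance molecule, was at 4.44, 8.22 and 10.5 CPM outside and 1, 1.47 and 5 CPM inside, with 1.95 ± 0.32 (SE; adjusted p = 0.0218), and was lost without any library other than IWAT replicate 3, EWAT replicate 1, RWAT replicate 1 and RWAT replicate 2 (adjusted p = 0.0527 to 0.0861). Ntn1, encoding netrin 1, was at 22, 29.5 and 46.7 CPM outside and 8.5, 11.2 and 23.1 CPM inside, with 1.20 ± 0.23 (SE; adjusted p = 0.0402), and was lost without any library other than IWAT replicate 3 and RWAT replicate 1 (adjusted p = 0.0509 to 0.139). All 10 Schwann cell genes had positive changes, with a median of 1.21. None passed with edgeR or limma-voom, 5 had an unadjusted p under 0.05, DESeq2 called 3, and edgeR called 4 without RWAT replicate 1 and 2 without IWAT replicate 3. Pmp22, a myelin protein gene, was at 144 CPM outside and 103 inside by median (adjusted p = 0.321).

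Few immune and stromal cell markers passed with edgeR. Of 18 macrophage markers, 16 had negative changes with a median of -0.74. None passed with edgeR or limma-voom, 3 had an unadjusted p under 0.05, DESeq2 called 3, and voom with quality weights called 16. Lyz2, the lysozyme of myeloid cells, was at 287, 939 and 2590.2 CPM outside and 682, 2577 and 4093 CPM inside, with -0.94 ± 0.58 (SE; adjusted p = 0.3). None of 9 B cell, 14 T and NK cell or 12 stromal progenitor markers passed with edgeR or limma-voom. At an unadjusted p under 0.05 there were 2, 0 and 6, DESeq2 called 1, 0 and 5, and voom with quality weights 3, 1 and 8. Among 12 endothelial markers Tek, the receptor of angiopoietins, was called higher outside, against 0.418% of all genes, in a list whose median was -0.19. Tek was at 37.7, 54.1 and 64.5 CPM outside against 20, 28.2 and 36.7 CPM inside, without overlap and with 0.92 ± 0.13 (SE; adjusted p = 0.0142). It passed without any 1 library, with an adjusted p of at most 0.0493, but not without TMM (adjusted p = 0.0926), with 2 groups of 6 without depot coefficients (0.056) or without both EWAT replicate 1 and RWAT replicate 3 (0.0646). Cspg4, a proteoglycan of pericytes and adipocyte precursors, was the called member of 10 smooth muscle and pericyte genes, against 0.418% of all genes called higher. Its change was 1.99 ± 0.38 (SE; adjusted p = 0.045), and it was lost without any library other than IWAT replicate 3 and RWAT replicate 1 (adjusted p = 0.0564 to 0.15). Krt14, a basal keratin, was the called member of 6 tested epithelial genes, against 0.433% of all genes called lower. Krt14 was at 0, 0.122 and 0.836 CPM outside and 1.07, 6.55 and 17.4 CPM inside, with -5.19 ± 1.02 (SE; adjusted p = 0.0475). The call was lost without any library other than IWAT replicate 3 and RWAT replicate 1 (adjusted p = 0.0572 to 0.178).

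Fewer genes passed within a side. BAT minus IWAT gave 2 calls (0.0104% of 19154 genes) and EWAT minus RWAT 8 (0.0418%), with 737 and 1732 genes at an unadjusted p under 0.05, where chance gives 958. Each of these rests on 3 libraries against 3, and the median standard error was 0.41 in both against 0.29 between the sides. The median absolute log2 fold change over all genes was 0.40 between the sides, 0.25 for BAT minus IWAT and 0.30 for EWAT minus RWAT. Without RWAT replicate 3 the first count was 97, without EWAT replicate 1 the second was 804 and without EWAT replicate 2 it was 0 by edgeR, with 1016 genes at an unadjusted p under 0.05. The first count was 0 by edgeR without BAT replicate 3, without any 1 IWAT library and without any 1 EWAT library, with 511 to 2252 genes at an unadjusted p under 0.05. It was 1 without BAT replicate 1 or 2 or RWAT replicate 2. Both BAT minus IWAT calls, named after their values were seen, were copies of 1 ribosomal protein gene, Rps16 and its pseudogene Rps16-ps2, between which reads may be split. Rps16 was at 64.6, 55.5 and 81.6 CPM in BAT and 77.0, 94.5 and 87.7 in EWAT. In IWAT it was at 20.7, 14.5 and 17.2 CPM and in RWAT at 16.97, 24.8 and 24.7. BAT and EWAT libraries were thus high and IWAT and RWAT libraries low, a grouping that crosses the sides, and the same held for Rps16-ps2. Both were also called for EWAT minus RWAT, with Gm12918, a predicted gene at 20.4 to 84.5 CPM in BAT and EWAT and with no count in any IWAT or RWAT library, and with Bspry. Whether these depots were handled apart is not in the labels, and the part of this grouping in other differences was not tested. Each side holds 1 depot of each kind, and between the sides the log2 fold change of Rps16 was -0.35 (adjusted p = 0.173).

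Of the 163 genes called between the sides, none was called for BAT minus IWAT and 4, all higher outside, for EWAT minus RWAT, Tbx15, Zfhx4 and Mmp3 among them. These comparisons share the EWAT and RWAT libraries with that of the sides, so their values are set side by side and nothing is read from their sign. Over the 80 higher genes the median log2 fold change was -1.41 for EWAT minus RWAT and 0.14 for BAT minus IWAT. Over the 83 lower genes it was 0.58 and -0.39.

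**Figure D5:**
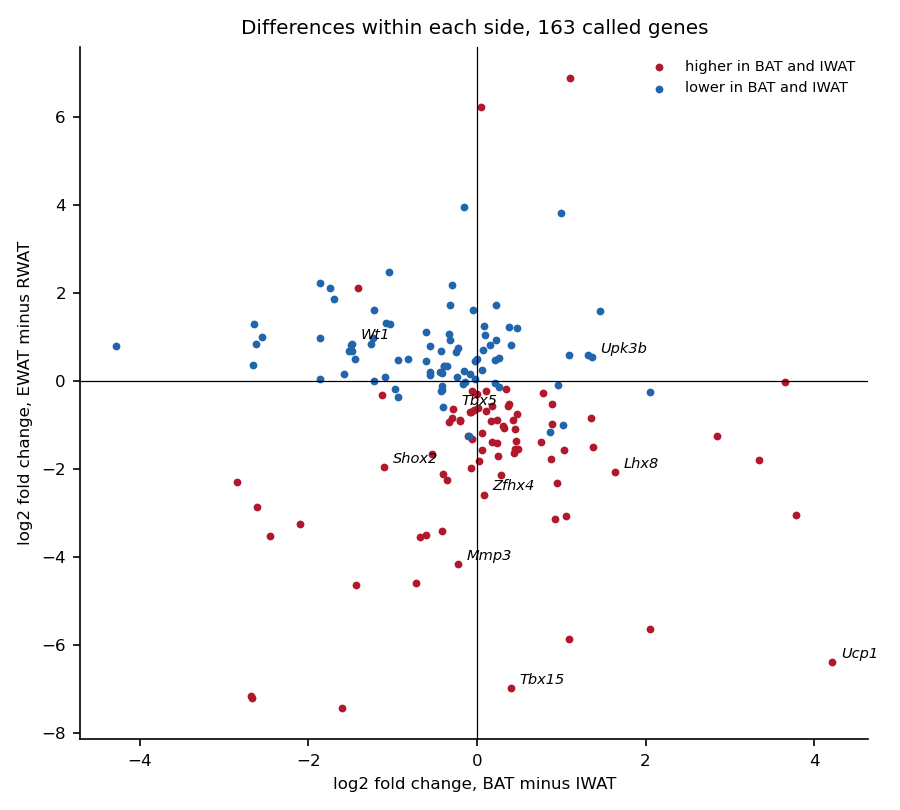
Log2 fold change of EWAT minus RWAT against that of BAT minus IWAT for the 163 genes called between the sides, red where higher in BAT and IWAT and blue where lower. Tbx15, Zfhx4 and Mmp3, which were also called for EWAT minus RWAT, lie at -6.99 to -2.59 on the vertical axis and within 1 log2 unit of 0 on the horizontal one.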

How the data were processed

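Total RNA depleted of ribosomal RNA was sequenced as single-end reads of 75 bases, per the labels' protocols, in 3 libraries of each of 4 depots. The submitters' processing notes name Trimmomatic 0.36, RSEM 1.3.0, DESeq2 1.10.1 and the build GRCm38.p4, while for the strand setting and the annotation the entry is: not given in the sources used here. Values deposited by the authors were the expected counts that RSEM made by dividing reads among genes, and these were rounded to whole numbers here. They also deposited TPM values, used only for levels per length, and posterior standard deviations of the count, read as a score of how uncertainly reads were assigned. Of 47729 genes, 47310 matched GENCODE M21 for names and positions.

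Genes kept by edgeR's filterByExpr were scaled by TMM and fitted with 1 coefficient per depot in edgeR 4.0.16 (R 4.3.3) by the quasi-likelihood test. The contrast was the mean of BAT and IWAT minus the mean of EWAT and RWAT, with Benjamini-Hochberg adjustment over all tested genes and a threshold of 0.05. For genes with a depot of at most 3 counts per library, a change was also taken with every library under 3 counts set at that floor. It was a difference of mean log2 levels, not a fitted contrast. The floor was not scaled by TMM, whose factors ran from 0.615 to 1.23, while the levels were. Calls within each side came from the same fit. DESeq2 1.42.0, limma-voom (limma 3.58.1), other scalings and filters, a replicate block, 2 groups of 6 without depot coefficients, and leaving out libraries were the alternatives. The code was tested on simulated data.

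Members and gene lists were chosen with earlier results of these data known. The genes named are 20 core genes, up to 10 per direction that changed most among called genes at 5 CPM or more on the higher side whose sides did not overlap (predicted gene names left out), and from each list the 2 called members that changed most per direction or else the member with the highest mean. Another 17 were added after their values were seen. A few genes that the rule names are not reported here. No library was left out of the results as first given.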

Additional observations from a re-analysis of the deposited data

Results flagged for a closer look

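In 15 of 162 sets of 6 libraries (each named gene on each side), 1 library lay far from the other 5 by Dixon's test. For independent, normally spread values, chance alone does this in about 1 in 20 sets. These sets share libraries, and where the other 5 hold no count, any count is flagged. The shares can thus not be compared. RWAT replicate 1 was the flagged library in 7 of the 15 sets. Inside the abdomen it was the highest for Scd1 (52864 CPM), Ndufa1 (40.4 CPM), mt-Co1 (17484 CPM), Hoxc8 (32.0 CPM) and Lmx1b (0.179 CPM), and the lowest for Lyz2 (682 CPM) and Rarres1 (0.834 CPM).

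RWAT replicate 3 was the highest intra-abdominal library for Ttn, the giant spring protein of muscle, at 7339 CPM, and for Mup2, at 0.217 CPM where the other 5 held none. EWAT replicate 1 was the highest for Defb42, an epididymal defensin, at 18.4 CPM. RWAT replicate 2 was the lowest for Rspo1, at 1.04 CPM. Among the outside libraries, IWAT replicate 3 was the lowest for Dcn, a stromal proteoglycan, at 476 CPM, and the only one with a count of Tcf21, at 0.104 CPM. BAT replicate 3 was the lowest for Pkhd1l1, at 0.0489 CPM, and BAT replicate 1 for Star, a steroid synthesis gene, at 1.02 CPM.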

How the results depend on the processing

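Between the sides, 163 calls became 2641 with DESeq2, 75 with limma-voom and 8266 with voom and quality weights, and 112 without both EWAT replicate 1 and RWAT replicate 3. The last 2 alternatives were chosen after seeing the data. Leaving out 1 library gave 40 to 2447 calls between the sides, 0 to 97 for BAT minus IWAT and 0 to 804 for EWAT minus RWAT. BAT minus IWAT went from 2 calls to 170 with DESeq2, 4 with no low-count filter, 85 with quality weights and 89 without both libraries. EWAT minus RWAT went from 8 to 546 with DESeq2, 18 with quality weights and 318 without both. The cause of these shifts was not tested. Of the 163 genes, 21 were called under all 22 alternatives, 8 higher and 13 lower.

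With the replicate number as a block there were 2929 calls between the sides, 0 for BAT minus IWAT by edgeR (942 at an unadjusted p under 0.05) and 12 for EWAT minus RWAT. Whether the numbers pair the libraries is not in the labels, and the main fit did not pair them. The deviations of 18 same-numbered pairs correlated at -0.35 to 0.68, 10 of them over 0.1. Of 12 libraries, 7 correlated best with their own number. These values do not settle whether the libraries were paired, and if they were, the main fit leaves the pairing out.

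Of 1781 values of named genes under alternatives, 1469 kept direction and side of the threshold, 249 lost the call, 48 gained it and 15 turned sign, in genes that were not called. Ighm turned to 0.19 with limma-voom and with the block, 0.08 without BAT replicate 3, 0.05 without IWAT replicate 3, 0.38 without EWAT replicate 1, 0.51 without RWAT replicate 1, 0.60 with quality weights and 0.23 without both libraries. Without TMM, Ttn turned to -0.16 and Pmp22 to -0.030. With 2 groups of 6, which gave 124 calls, Hoxc10 turned to 0.72 and Hoxa5 to 0.15. Lep turned to -0.056 without IWAT replicate 1. Leaving out 1 library gave -0.34 to 0.51 for Ighm, -0.056 to 1.87 for Lep, -0.54 to -0.13 for Hoxa5 and -1.83 to -0.06 for Defb42. Without both libraries, Hoxa5 turned to 0.019 and Defb42 to 0.16. With 3 libraries a depot and totals of 15699763 to 25633270 counts, levels under about 0.19 CPM cannot be told from 0.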
